A study of Saccharomyces pastorianus with 12 samples.

Results

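The 0 h sample of a production-scale lager fermentation was compared with the samples taken at 120, 144 and 168 h, which are 4 of the 12 arrays of the series. Samples were grouped by their labelled times, and the comparison itself was chosen with earlier results of these data known. The 0 h group held 1 array and the late group held 3 arrays, 1 at each of 120, 144 and 168 h. All samples were lager brewing yeast, Saccharomyces pastorianus, from which total RNA was hybridised, and the labels gave no strain, tank, wort, temperature or replicate. The labels call the first sample only "0 hours", so whether it was taken from the stored yeast or from the freshly pitched wort was not stated.

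Brewers start a fermentation by pitching yeast that is usually cropped from an earlier one and kept cold. Yeast makes ergosterol, its main sterol, through a pathway whose later steps use molecular oxygen, which is scarce once fermentation is under way. Cells coming to rest build up the storage carbohydrates glycogen and trehalose and lower the making of new ribosomes. The comparison asks how the transcripts of the yeast at the start of a fermentation differ from those of yeast late in the same time course.

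Each array gave intensities for 6084 probes, of which 5523 carried 1 gene symbol in the platform annotation and 561 carried none. After averaging the 32 symbols with several probes, 6048 genes or unnamed probes had a value on all 4 arrays. A level here is how far a gene lies from its array's median on the log2 scale, and a difference is the 0 h level minus the mean of the 3 late levels. The median intensity was 2066 units at 0 h, against 3666, 810 and 762 units at 120, 144 and 168 h. The spread of levels over genes was narrower at 0 h, with an SD of 0.91, than on the late arrays, with SDs of 1.10, 1.03 and 1.27. The deposited values came with no background signal, so genes dimmer than the 5th percentile of an array are pointed out below. Levels are relative within an array, so the number of cells and the RNA per cell cannot be told apart. Gene names are those of S. cerevisiae, copies from the other parent of this hybrid yeast were not resolved, and near-identical genes can share signal.

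Across genes, the 0 h array ranked the 6048 genes much as the late arrays did, with Spearman correlations of 0.719 with 120 h, 0.608 with 144 h and 0.728 with 168 h. Its correlation with the 1 h array was 0.40 and with the 264 h array 0.544. With the 72 h array it was 0.701, above the 144 h value, so the likeness was not particular to 120 to 168 h. The late arrays correlated with each other at 0.726 to 0.842. These values describe the arrays, since genes are not independent replicates.

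At 0 h, 1578 genes (26.1% of those tested) lay above all 3 late levels and 1815 (30.0%) lay below them, which left 2655 inside the late range. A gene with no difference falls outside 3 other values in a given direction in 25% of cases, so these totals are close to that share. After quantile normalization, which forces all arrays to the same distribution, 1925 genes (31.8%) lay above and 1739 (28.8%) below. Both normalizations placed 1452 genes (24.0%) above and 1512 (25%) below. A margin of at least 1 log2 unit was reached by 52 genes above (0.86%) and 164 below (2.71%), and in both normalizations by 47 above (0.777%) and 124 below (2.05%). In median-centred values, 320 genes lay above the late range by less than 0.1 log2 units and 294 below it by less than 0.1. Their place outside the range rests on small differences.

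The side on which a gene fell went with its brightness. Among the brightest 25% of genes by mean level over the 12 arrays, 8.07% lay above the late range at 0 h and 56.7% below. Among the dimmest 25%, 42.6% lay above and 14.9% below. After quantile normalization the same shares were 26.3% above and 39.8% below for the brightest genes, and 36.9% above and 20.7% below for the dimmest. The narrower spread of the 0 h array runs along with this pattern. With all arrays set to equal median absolute deviations, 1862 genes lay above the late range and 1905 below it, and 19 of 24 ergosterol synthesis genes lay below. Counts of the main bright gene groups are therefore set beside the shares of bright genes.

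**Figure D1:**
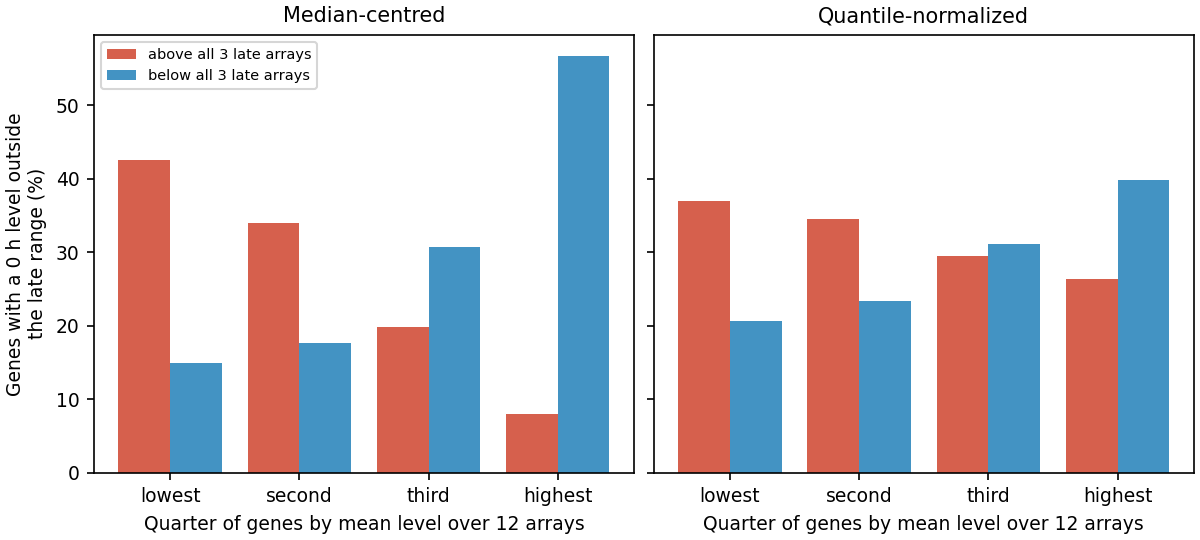
Percentage of genes whose 0 h level lay above (red) or below (blue) all 3 late levels, in 4 groups of 1512 genes ordered by mean level over the 12 arrays, median-centred on the left and quantile-normalized on the right. Genes below the late range make up 14.9% of the dimmest group and 56.7% of the brightest group in median-centred values, and 20.7% and 39.8% after quantile normalization.

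In limma, 2 genes were higher at 0 h (0.0331% of genes tested) and 4 were lower (0.0661%) after Benjamini-Hochberg adjustment at 0.05, two-sided. At an unadjusted p under 0.05 there were 163 higher and 375 lower genes. The 0 h array had no replicate, so the spread came from the 3 late arrays, with 2 residual degrees of freedom, and the 0 h array was taken to vary like them. The late arrays are different times of what may be a single fermentation, so the p-values speak for these samples.

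MXR2 encodes the mitochondrial methionine sulfoxide reductase, which repairs oxidized methionine in proteins. Its level was 4.78 at 0 h, against 1.12, 1.04 and 1.09 at 120, 144 and 168 h. The 0 h array stood far outside the late arrays, which nearly coincided. The gene was 13.0-fold higher at 0 h (log2 difference 3.70 ± 0.50, SE, limma adjusted p = 0.00151). At the other times it had levels of 0.18 at 1 h, 1.33 at 24 h and -0.36 at 264 h, so 0 h was the highest of the 12 arrays. Its cytosolic counterpart MXR1 had -0.34 at 0 h, against -0.54, 0.07 and -0.18 late, inside the late range.

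FIG2 encodes a cell wall adhesin known from mating cells. It stood at 2.67 at 0 h, against -0.09, -0.16 and -0.38 at 120, 144 and 168 h, and the groups did not overlap. The difference was 2.88 ± 0.50 (SE, 7.37-fold, limma adjusted p = 0.0200). The 10 genes fixed as markers of mating in haploid cells had a median level of -0.30 at 0 h, against -0.41, -0.45 and -0.22 late. Of the 10, 3 lay above and 2 below the late range, against 26.1% and 30.0% of all genes. The mating-induced gene FUS1 had 0.18 at 0 h, against 0.77, -0.29 and 0.25 late.

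The 4 genes that were lower in limma were ERG25, ERG10, ERG3 and CYB5. ERG25, the C-4 methyl sterol oxidase, had 1.57 at 0 h, against 4.89, 4.56 and 5.44 late. ERG10, the acetoacetyl-CoA thiolase of the first step of the pathway, had -0.22 at 0 h, against 3.51, 2.47 and 2.31 late. ERG3, the C-5 sterol desaturase, had 1.05 at 0 h, against 4.19, 3.55 and 3.64 late. In each of these genes the 0 h array lay more than 2 log2 units under the lowest late array.

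CYB5, the cytochrome b5 that passes electrons to sterol and lipid enzymes, had -0.12 at 0 h, against 3.36, 2.38 and 2.37 late. In limma ERG25 was 10.5-fold lower (log2 difference -3.39 ± 0.52, SE, adjusted p = 0.00554) and ERG10 7.92-fold lower (-2.98 ± 0.55, adjusted p = 0.0303). ERG3 was 6.71-fold lower (-2.75 ± 0.51, adjusted p = 0.0303) and CYB5 7.09-fold lower (-2.83 ± 0.54, adjusted p = 0.0317). After quantile normalization over the 12 arrays MXR2 and FIG2 passed in limma and these 4 genes did not, although all 4 stayed below the late range. Leaving out the 168 h array raised the limma counts to 7 genes higher and 24 lower.

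**Figure D2:**
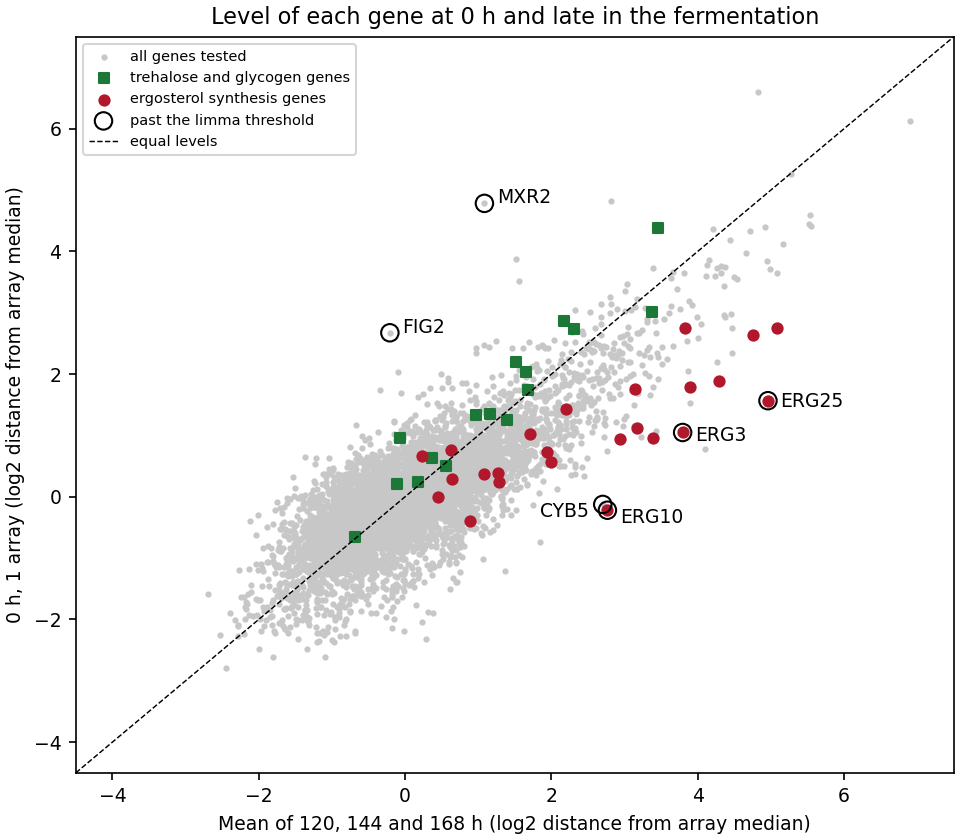
Level of each of 6048 genes at 0 h (vertical axis, 1 array) against its mean level at 120, 144 and 168 h (horizontal axis), both as log2 distance from the array median. Ringed genes passed the adjusted p threshold in limma: MXR2 and FIG2 lie above the line of equal levels and ERG25, ERG10, ERG3 and CYB5 below it, and most ergosterol synthesis genes (red) lie below the line.

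Ergosterol synthesis genes were low at 0 h along nearly the whole pathway. Of the 24 measured genes 22 (91.7%) lay below all 3 late levels, against 30.0% of all genes, and 18 did so after quantile normalization, against 28.8% of all genes. The median member differed by -1.32 log2 units (2.50-fold lower), or by -1.0 after quantile normalization, against -0.04 and 0.02 for all genes. All 24 genes belong to the brightest 25% of genes, of which 56.7% lay below the late range, or 39.8% after quantile normalization. Median levels over the pathway were 0.95 at 0 h, against 3.24, 2.12 and 2.38 at 120, 144 and 168 h.

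The early part of the pathway, which makes mevalonate and the isoprenoid units, held both large and small differences. ERG13, the HMG-CoA synthase, had 1.76 at 0 h, against 4.05, 2.83 and 2.54 late. HMG1 and HMG2 are a pair of HMG-CoA reductases, the main control step of the pathway, and they did not move alike. HMG1 had 1.02 at 0 h, against 2.89, 1.07 and 1.17 late, so it was at the late minimum. HMG2 had 0.67 at 0 h, against 0.52, 0.15 and 0.01 late, and was the only pathway gene above the late range in these values. The mevalonate kinase gene ERG12 had 0.77 at 0 h, against 1.06, 0.35 and 0.48 late, inside the range. Its neighbours in the pathway, ERG8 (-0.39 at 0 h, lowest late level 0.48), MVD1 (0.56, lowest late level 1.10) and IDI1 (0.74, lowest late level 1.51), lay below it.

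From squalene onward, every measured enzyme gene lay below the late range at 0 h in median-centred values. ERG9, the squalene synthase, had 2.76 at 0 h, against 4.14, 3.19 and 4.13 late. ERG1, the squalene epoxidase and the first step that uses oxygen, had 1.89 at 0 h, against 4.75, 3.77 and 4.37 late, a difference of -2.41 (5.32-fold, limma adjusted p = 0.0922). ERG11, the lanosterol demethylase, had 2.75 at 0 h, against 5.64, 4.42 and 5.21 late, a difference of -2.34 (limma adjusted p = 0.118). Among the pathway genes that did not pass in limma, ERG1, ERG11 and ERG2, the sterol isomerase, were the farthest from their late means. ERG2 had 0.96 at 0 h, against 3.99, 3.08 and 3.11 late, and differed by -2.43 (limma adjusted p = 0.0922).

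ERG26 and ERG28, which act with ERG25 in removing the C-4 methyl groups, differed by -2.06 and -2.11, and their 0 h levels of 1.12 and 1.79 lay under late minima of 2.83 and 3.44. ERG27, the remaining member of that complex, differed by -1.06, with 0.23 at 0 h and a late minimum of 0.89. ERG5 and ERG6, a desaturase and the methyltransferase specific to fungal sterols, differed by -2.12 and -2.0. ERG7, the lanosterol synthase, and ERG4, the last enzyme, were near their late levels, with differences of -0.45 and -0.35. None of these 7 genes (ERG26, ERG28, ERG27, ERG5, ERG6, ERG7 and ERG4) passed in limma, with adjusted p from 0.139 for ERG26 to 0.895 for ERG4. The farnesyl diphosphate synthase gene ERG20, the C-14 reductase gene ERG24 and NCP1, the reductase that serves ERG11, also lay below the range, with differences of -0.89, -0.72 and -0.76.

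Across the whole time course, the low sterol levels of the 0 h array were shared with the last days. The median pathway level was 2.29 at 1 h, and 22 of the 24 genes were higher at 1 h than at 0 h. At 192 h the median was 0.99 and only 7 of the 24 genes were above their 0 h level. At 240 h 4 were above it, and at 264 h 11 were, with a median of 1.02. When the 192 h array was added to the late group, 6 of the 24 genes still lay below the late range. The genes of this pathway are named in full because the list was described as a pathway, and of those below the range ERG25, ERG10, ERG3, ERG1, ERG11 and HMG1 came from the naming rule.

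**Figure D3:**
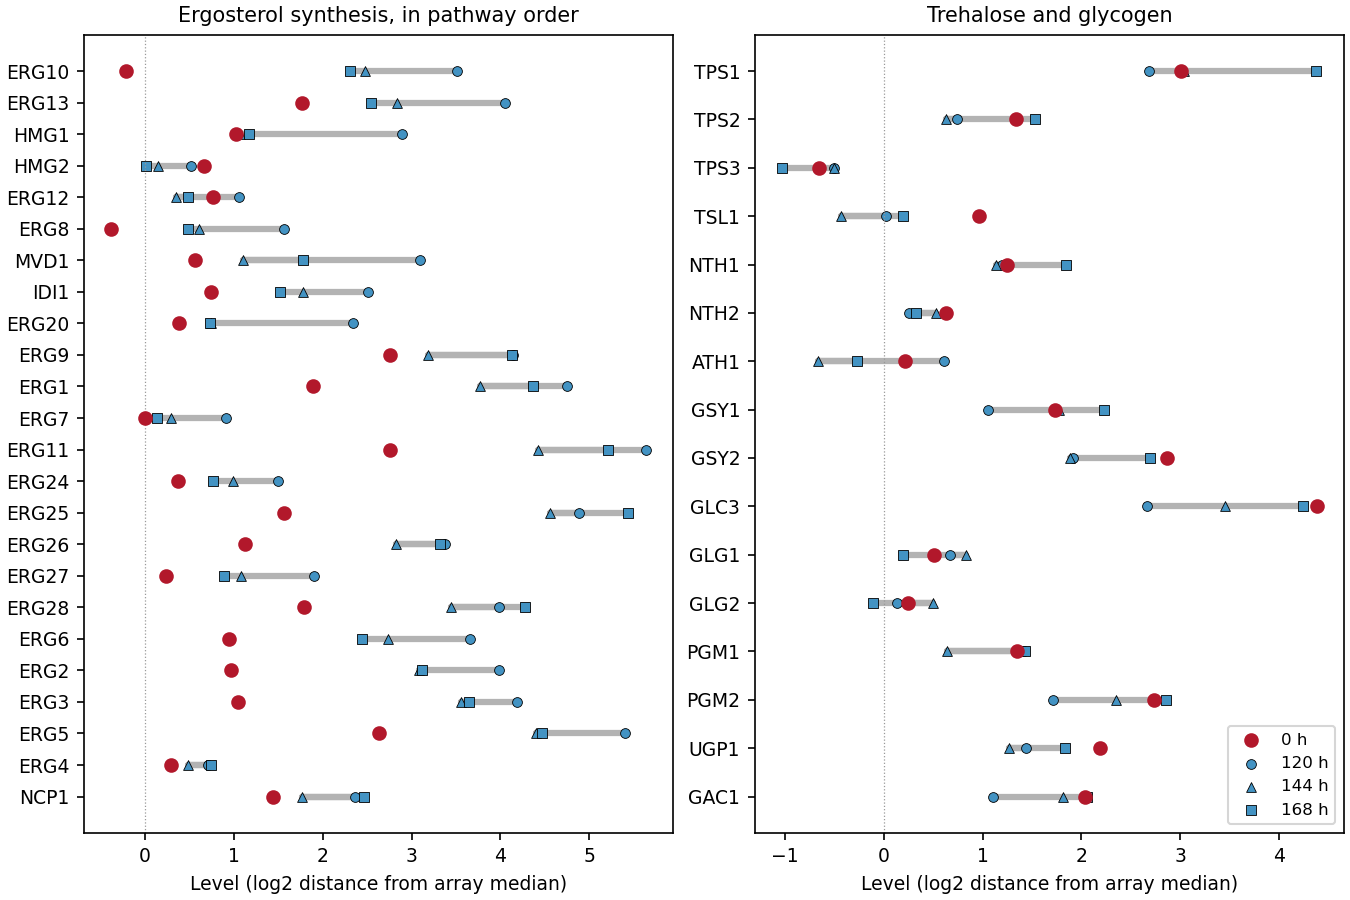
Levels (log2 distance from the array median, horizontal axes) of the 24 ergosterol synthesis genes in pathway order on the left and of the 16 measured trehalose and glycogen genes on the right, at 0 h (red) and at 120, 144 and 168 h (blue circles, triangles and squares, joined by a grey bar). The red point lies left of the bar for 22 sterol genes and right of it for 5 trehalose and glycogen genes.

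Genes that handle sterols after synthesis were mixed. Of 22 genes of sterol regulation, uptake and storage 10 lay below the late range and 3 above. After quantile normalization 8 lay below and 5 above. The shares of all genes were 30.0% below and 26.1% above, or 28.8% and 31.8% after quantile normalization. The brightest group of genes held 7 of the 22. Of these 6 lay below, or 5 after quantile normalization, against 56.7% and 39.8% of all genes in that group. YEH1, a steryl ester hydrolase, had 0.75 at 0 h, against 3.47, 2.14 and 2.64 late. YEH2, its plasma membrane relative, had 1.05 at 0 h, against 0.32, 0.03 and -0.15 late, so the pair lay on opposite sides. The sterol acyltransferase gene ARE1 had 0.40 at 0 h, against 1.63, 0.99 and 2.18 late, and HES1, an oxysterol-binding protein gene, had 0.38 at 0 h, against 1.62, 1.31 and 1.73 late.

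OLE1, the fatty acid desaturase, was among the brightest genes on each of the 4 arrays. It had 6.13 at 0 h, against 6.85, 6.33 and 7.55 at 120, 144 and 168 h. At 1 h it had 2.46, and at 24 h 5.94. The 0 h level lay 0.20 under the lowest late level, and the difference of -0.78 did not pass in limma (adjusted p = 0.730). With the arrays set to equal median absolute deviations the difference was 1.27 in the opposite direction, so its direction depended on the scaling. MGA2, which drives OLE1 transcription, had 0.81 at 0 h, against 2.15, 1.93 and 2.64 late, and SPT23, its relative with the same role, had 0.39 at 0 h, against -0.00, -0.22 and 0.19 late.

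**Figure D4:**
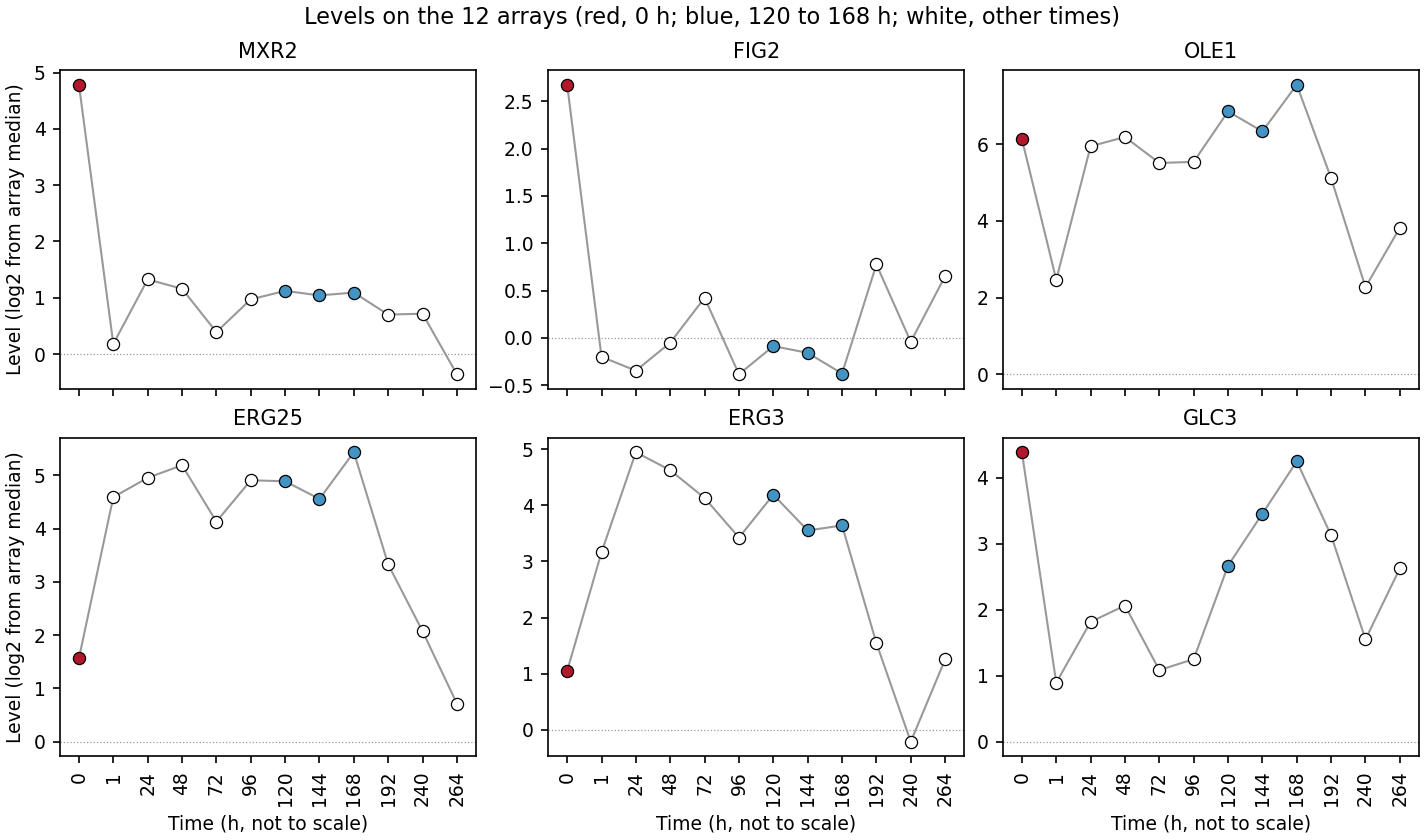
Levels (log2 distance from the array median, vertical axes) of MXR2, FIG2, OLE1, ERG25, ERG3 and GLC3 on the 12 arrays in time order, with 0 h in red, 120 to 168 h in blue and the other times in white, 1 array at each time. MXR2 and FIG2 are high at 0 h alone, and ERG25 and ERG3 are low at 0 h and again after 168 h. OLE1 and GLC3 drop between 0 h and 1 h. OLE1 is back near its 0 h level at 24 h, and GLC3 is high again by 168 h.

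Cell wall mannoproteins that yeast makes without oxygen (TIR, DAN and PAU genes) had 10 of 14 measured members below the late range at 0 h and 0 above, and after quantile normalization 8 below and 2 above, with median differences of -0.82 and -0.33. Among all genes 30.0% and 28.8% lay below. TIR3 had 2.19 at 0 h, against 4.02, 4.06 and 4.70 late, and TIR1 had 4.45 at 0 h, against 5.42, 5.16 and 6.0 late. The seripauperin gene PAU3 had 0.35 at 0 h, against 1.76, 1.36 and 2.26 late, and DAN1 had 0.45 at 0 h, against 0.50, 0.16 and 0.47 late, inside the range. The seripauperin genes are near-identical, so their counts are not independent. The brightest 25% of genes held 11 of the 14, of which 9 were below, against 56.7% of all bright genes.

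A wider list of 20 hypoxic genes shares members with the sterol, fatty acid and cell wall lists. It had 10 members below and 3 above, or 9 below and 6 above after quantile normalization. The shares of all genes were 30.0% below and 26.1% above, or 28.8% and 31.8% after quantile normalization. The brightest group of genes held 12 of the 20. Of these 9 lay below, or 8 after quantile normalization, against 56.7% and 39.8% of all genes in that group. EUG1, a protein disulphide isomerase gene, had -0.81 at 0 h, against 0.94, 0.06 and 0.85 late. CYC7 and ANB1 are low-oxygen forms of cytochrome c and of a translation factor. CYC7 had 2.98 at 0 h, against 4.06, 4.14 and 5.19 late, and ANB1 had 2.05 at 0 h, against 4.09, 3.83 and 3.67 late. In both the 0 h level lay at least 1 log2 unit under all late levels in median-centred values. No gene of this list kept that margin in both normalizations. The aerobic forms CYC1 and HYP2 also lay below the late range in both normalizations, so the low 0 h levels were not particular to the low-oxygen forms. CYC1 had 2.25 at 0 h, against 3.63, 3.47 and 3.64 late. HYP2 had 2.34 at 0 h, against 4.60, 4.07 and 4.73 late. GPD2, which makes glycerol under anaerobic conditions, had 0.28 at 0 h, against -0.01, 0.08 and 0.15 late.

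Of 30 oxidant defence genes, MXR2 included, 15 lay below the late range and 3 above, and after quantile normalization 15 below and 8 above. Among all genes 30.0% lay below and 26.1% above, or 28.8% and 31.8% after quantile normalization. The brightest 25% of genes held 16 of the 30, of which 10 lay below, against 56.7% of all bright genes. TSA1, the main cytosolic peroxiredoxin, had 1.54 at 0 h, against 4.57, 3.42 and 3.68 late (difference -2.35, limma adjusted p = 0.116). SOD2, the mitochondrial superoxide dismutase, had 1.15 at 0 h, against 3.59, 2.73 and 3.08 late (-1.98, limma adjusted p = 0.199). In both genes the 0 h array lay over 1 log2 unit under every late array. SOD1, its cytosolic counterpart, had 1.92 at 0 h, against 3.35, 3.47 and 3.55 late. The catalase gene CTT1 had 1.61 at 0 h, against 2.34, 1.60 and 2.66 late, inside the range.

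Of 38 genes of the respiratory chain and ATP synthase 22 (57.9%) lay below the late range at 0 h and 3 above, and 18 and 8 did so after quantile normalization, with median differences of -0.63 and -0.28. Among all genes 30.0% and 28.8% lay below. Of the 26 that belong to the brightest 25% of genes 19 lay below, or 15 after quantile normalization, against 56.7% and 39.8% of all bright genes. RIP1, the Rieske subunit of the cytochrome bc1 complex, had 0.12 at 0 h, against 1.26, 1.64 and 1.69 late. CYC1, the main cytochrome c, had 2.25 at 0 h, against 3.63, 3.47 and 3.64 late, and COX4, a cytochrome c oxidase subunit, had 0.50 at 0 h, against 1.22, 1.23 and 1.49 late. NDE1, an NADH dehydrogenase of the inner membrane, ran the other way, with 0.38 at 0 h, against -0.54, 0.02 and -1.05 late.

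The machinery of protein synthesis split by class, and the classes also differed in brightness. Cytosolic ribosomal protein genes had 85 of 132 members below the late range and 8 above (median difference -0.52), or 66 below and 23 above after quantile normalization (-0.29). Among all genes 30.0% lay below, or 28.8% after quantile normalization. The brightest 25% of genes held 124 of them, of which 83 were below, or 62 after quantile normalization, against 56.7% and 39.8% of all bright genes. RPS25A had 0.35 at 0 h, against 2.10, 2.42 and 2.81 late, and RPL7B had 1.26 at 0 h, against 0.48, 0.24 and 0.50 late. Paired ribosomal protein genes are nearly identical, so a probe can read both copies.

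At 1 h the median ribosomal protein gene was at 5.07, against 0.53 at 0 h and 0.89 to 1.06 in the late samples, so the 0 h array was far closer to the late arrays than to the 1 h array. Ribosome biogenesis genes, which assemble ribosomes, showed no such shift, with 32 of 79 above, 23 below and a median difference of 0.15 (0.16 after quantile normalization). Biogenesis genes above the range included NOC3, a factor in the export of ribosomal subunits, with 0.03 at 0 h, against -0.84, -0.79 and -0.94 late. RPA190, the largest subunit of RNA polymerase I, had 3.87 at 0 h, against 1.03, 1.35 and 2.16 late, a difference of 2.36 (limma adjusted p = 0.116). The other 19 measured genes of RNA polymerases I and III were divided. Of the list of 20, 4 lay above and 4 below (20% each), against 26.1% and 30.0% of all genes. Mitochondrial ribosomal protein genes had 33 of 68 below (48.5%) and 10 above (14.7%), against 30.0% and 26.1% of all genes. MRPL27, in this list, had -1.01 at 0 h, against 0.58, 0.81 and 1.79 late.

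Of 35 proteasome genes 23 (65.7%) lay below the late range at 0 h and 2 above, or 18 and 7 after quantile normalization, with median differences of -0.47 and -0.34. Among all genes 30.0% lay below, or 28.8% after quantile normalization. Of the 21 proteasome genes in the brightest 25% of genes 14 were below, or 11 after quantile normalization, against 56.7% and 39.8% of all bright genes. RPT2, an ATPase of the regulatory particle, had -0.21 at 0 h, against 1.28, 1.29 and 1.97 late, and RPN10, a ubiquitin receptor, had 0.77 at 0 h, against 1.92, 1.92 and 2.87 late. RPN4, the transcription factor that activates these genes, had 2.05 at 0 h, against 1.41, 1.73 and 2.27 late, inside the range. PRE8, a subunit of the core particle, was above the range, with -0.40 at 0 h, but its late levels of -1.96, -1.58 and -2.82 all lay under the 5th percentile of their arrays.

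Trehalose and glycogen genes were the only one of the 44 lists with no member below the late range. Of 16 measured genes 5 (31.3%) lay above it, near the 26.1% of all genes, and 0 lay below. After quantile normalization 11 lay above, against 31.8% of all genes, and 0 below. The brightest 25% of genes held 10 of the 16, and among all bright genes 8.07% lay above and 56.7% below, or 26.3% and 39.8% after quantile normalization. The median difference was 0.29, or 0.65 after quantile normalization. TSL1, a subunit of the trehalose synthase complex, had 0.96 at 0 h, against 0.02, -0.43 and 0.20 late. UGP1, which makes the UDP-glucose used by both pathways, had 2.19 at 0 h, against 1.44, 1.26 and 1.83 late. The glycogen synthase gene GSY2 had 2.87 at 0 h, against 1.92, 1.89 and 2.70 late, close to the 168 h level.

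GLC3, the glycogen branching enzyme, had the highest level of the list at 0 h. It had 4.39 at 0 h, against 2.67, 3.45 and 4.25 late, and 0.89 at 1 h. TPS1, the trehalose synthase itself, had 3.01 at 0 h, against 2.68, 3.04 and 4.38 late, inside the range. Of these genes 0 passed in limma, and 0 had an unadjusted p under 0.05. The late arrays themselves differed here, since the 168 h levels of GSY2, GLC3 and TPS1 were the highest of the late group. Leaving out 168 h raised the count above the range to 9 of 16. GPH1, the glycogen phosphorylase, was not among the named probes.

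Stress genes were divided, and their counts depended on the normalization. Of 31 heat shock and chaperone genes 4 lay above and 10 below, but 15 above and 8 below after quantile normalization, with median differences of -0.04 and 0.33. Among all genes 26.1% lay above and 30.0% below, or 31.8% and 28.8% after quantile normalization. The 10 of 31 below (32.3%) were thus near the share of all genes. SSA4, an inducible chaperone of the Hsp70 family, had 1.06 at 0 h, against 0.07, -0.13 and 0.55 late. HSP60 and HSP10, the mitochondrial chaperonin pair, lay below: HSP60 had 0.03 at 0 h, against 1.35, 0.91 and 0.85 late, and HSP10 had -0.06 at 0 h, against 0.93, 0.95 and 0.93 late. HSP26, a small heat shock protein, had 3.72 at 0 h, against 3.40, 4.15 and 5.24 late, and HSP12 had 1.44 at 0 h, against 1.54, 2.40 and 3.33 late.

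The 30 general stress genes had 4 above (13.3%) and 10 below (33.3%), or 10 above and 7 below after quantile normalization. Among all genes 26.1% lay above and 30.0% below, so the share below was near that of all genes. DDR48, a stress-induced cell wall protein gene, had 1.27 at 0 h, against 2.34, 2.70 and 2.83 late. XBP1, a repressor of cell cycle genes in resting cells, had 1.25 at 0 h, against 0.21, 0.15 and 1.15 late. The SPI1 and PST1 cell wall genes stood inside the range, with 3.64 at 0 h, against 2.46, 3.81 and 5.16 late for SPI1, and 2.89 at 0 h, against 2.70, 2.73 and 4.48 late for PST1.

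Sugar metabolism genes depended on the normalization. Of 21 genes of glycolysis and ethanol formation 4 lay above and 9 below in median-centred values. After quantile normalization 11 lay above and 2 below, and the median difference went from -0.26 to 0.25. The shares of all genes were 26.1% above and 30.0% below, or 31.8% and 28.8% after quantile normalization. The brightest group of genes held 18 of the 21. Of these 9 lay below, or 2 after quantile normalization, against 56.7% and 39.8% of all genes in that group. PGK1, phosphoglycerate kinase, had 2.04 at 0 h, against 2.49, 2.62 and 3.47 late. PDC6, a minor pyruvate decarboxylase, had 1.30 at 0 h, against 0.70, 0.42 and 0.95 late. Among hexose transporters, HXT2, a high-affinity form, had 0.67 at 0 h, against -0.77, -0.78 and 0.22 late, and HXT1, a low-affinity form, had 3.12 at 0 h, against 2.98, 3.85 and 4.93 late. MAL32, a maltase, had 2.31 at 0 h, against 3.42, 3.15 and 3.20 late, but after quantile normalization it was only 0.01 below the lowest late level. The permease MAL31 had 1.63 at 0 h, against 1.70, 2.02 and 1.63 late.

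In gluconeogenesis and fatty acid oxidation, PCK1, the phosphoenolpyruvate carboxykinase, had 0.13 at 0 h, against -0.18, -0.53 and -0.26 late. FOX2, the multifunctional enzyme of peroxisomal oxidation, had 1.51 at 0 h, against 0.73, -0.07 and 0.23 late, while POT1, the thiolase that follows it, had 0.69 at 0 h, against 1.99, 1.41 and 2.60 late. As a list, the 33 peroxisomal genes were even, with 9 above and 9 below (27.3% each), near the 26.1% and 30.0% of all genes. Ester and fusel alcohol genes had 8 of 21 above (38.1%) and 6 below (28.6%). EEB1, which forms ethyl esters, was the farthest below, with 0.98 at 0 h, against 3.50, 3.25 and 2.95 late.

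Methionine and amino acid genes varied by step. SAH1, which clears S-adenosylhomocysteine, had 1.08 at 0 h, against 3.59, 3.14 and 3.55 late, and MET6, the methionine synthase, had 0.42 at 0 h, against 2.08, 1.44 and 1.79 late. MET3, the first enzyme of sulfate assimilation, lay above the range, with -0.11 at 0 h, against -0.84, -0.74 and -0.83 late. The list of 33 sulfur genes had 8 above (24.2%) and 12 below (36.4%), against 26.1% and 30.0% of all genes. In other amino acid synthesis 22 of 62 lay above (35.5%) and 18 below (29.0%). ILV2, of branched-chain synthesis, had 0.49 at 0 h, against -0.48, -1.30 and -0.45 late. GLY1, the threonine aldolase, had -0.13 at 0 h, against 1.00, 1.10 and 1.27 late. The proline catabolic gene PUT2 had 0.50 at 0 h, against 2.29, 1.80 and 2.43 late, and the iron permease gene FTR1 had 0.12 at 0 h, against 2.82, 1.21 and 2.18 late.

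Genes of thiamine and vitamin B6 metabolism had 12 of 25 members (48.0%) above the late range and 3 below, the largest share above among the 44 lists in median-centred values. After quantile normalization 11 were above and 4 below, and the trehalose and glycogen, glycolysis, ester, heat shock and other amino acid synthesis genes had larger shares above. The median difference was small, at 0.19 in both normalizations, and 0 members passed in limma. THI13, a thiamine precursor synthesis gene, had 0.53 at 0 h, against -0.10, -0.05 and -0.45 late, and THI7, the thiamine transporter, had 0.05 at 0 h, against -0.56, -0.51 and -0.45 late. The THI5, THI11, THI12 and THI13 genes are near-identical and can share signal. DNA replication genes had 16 of 49 above (32.7%) and 7 below (14.3%), against 26.1% and 30.0% of all genes. After quantile normalization 17 lay above and 9 below. RFA1, the large subunit of the single-strand binding protein, had 0.78 at 0 h, against -0.07, 0.04 and -0.31 late. Few members of these lists belong to the brightest 25% of genes, 6 of 25 and 5 of 49, and in the 2 dimmer groups of the plot by brightness 33.9% and 42.6% of all genes lay above the range.

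Beyond the lists, 47 genes stood at least 1 log2 unit above the late range in both normalizations and 124 stood as far below it. These genes were picked by their 0 h and late levels. The levels and shares that follow therefore partly result from the rule and only describe the picked genes. The 47 were mostly dim late in fermentation, with a median level of 0.45 at 0 h and of -0.99 for the late means. At least 1 late level lay under the 5th percentile of its array in 14 of the 47, and in 658 of all 6048 genes. In 32 of the 47, 0 h was the highest of the 12 arrays, as it was in 383 of all 6048 genes. The 124 had a median level of -0.73 at 0 h and of 0.74 for the late means, and 31 were under the 5th percentile at 0 h. In all genes 5.01% were. In 55 of the 124, 0 h was the lowest of the 12 arrays, as it was in 313 of all 6048 genes. The ergosterol list gave 7 of the 124, cytosolic and mitochondrial ribosomal protein genes 4 each, and no list gave more than 1 of the 47.

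Among the genes farthest above the range after MXR2 and FIG2 were regulators and structural genes with no shared list. SFG1, a transcription factor of pseudohyphal growth, had 1.74 at 0 h, against -0.54, -0.24 and -0.24 late. SIN4, a subunit of the Mediator complex, had 0.64 at 0 h, against -1.22, -1.23 and -1.21 late, with a late SD of only 0.01. In both genes the 0 h array stood apart from late arrays that lay close together. VRP1, verprolin of the actin cytoskeleton, had 1.99 at 0 h, against 0.78, -0.02 and 0.73 late. MDM1, of organelle inheritance, had 0.80 at 0 h, against -0.89, -0.67 and -0.70 late, and CRN1, coronin, had 0.03 at 0 h, against -1.52, -1.28 and -1.28 late. MAM1, a meiotic kinetochore gene, had 0.63 at 0 h, against -1.09, -1.10 and -0.92 late. The 10 sporulation genes fixed as markers had 0 members above the range and 2 below, against 26.1% and 30.0% of all genes.

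YCL068C, whose function is not described here, had 0.37 at 0 h, against -0.95, -1.04 and -1.30 late. The remaining genes of this rank, RPB8, CRR1, SEI1 and YPD1, had 1 to 3 of their levels under the 5th percentile, where background is unknown. RPB8, a subunit shared by the nuclear RNA polymerases, had -0.03 at 0 h, against -1.59, -1.74 and -1.51 late. None of these genes except MXR2 and FIG2 passed in limma, where their adjusted p-values ran from 0.116 for RPA190 to 0.408 for CRN1.

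Farthest below the range after the sterol genes and CYB5 stood FMP48, a predicted protein kinase, with -0.73 at 0 h, against 2.05, 1.23 and 2.26 late (5.97-fold, limma adjusted p = 0.0768). NRG2, a repressor of glucose-repressed genes, had -0.14 at 0 h, against 1.66, 1.72 and 1.89 late. TRS65 and TRS120 belong to TRAPP complexes of vesicle transport. TRS65 had -1.22 at 0 h, against 0.70, 0.36 and 1.18 late, and TRS120 had -1.88 at 0 h, against 0.34, -0.10 and 0.68 late. The 0 h levels of TRS120, YIL177C, PRR2, IST3, LTE1 and MRP51 were under the 5th percentile of that array, so the size of their differences is left out.

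Of 39 genes fixed by name, 38 were measured. Outside the late range on the same side in both normalizations were 14, namely SSA4, HSP104, MXR2, GSY2 and PCK1 above, and CYC1, COX4, MAL32, ERG1, ERG3, ERG11, MET6, SOD2 and OLE1 below. HSP104, the disaggregase, was above by only 0.01, with 0.83 at 0 h, against 0.54, 0.71 and 0.82 late. The other 24 were not outside the range on the same side in both normalizations, and 17 of them turned sign under at least 1 alternative. Among these were the glycolytic gene TDH3 (3.97 at 0 h, against 4.32, 4.44 and 5.21 late), ADH1 (2.41 at 0 h, against 2.30, 2.52 and 2.72 late), IZH2 (3.76 at 0 h, against 4.03, 4.19 and 4.75 late, but above the late range after quantile normalization) and the flocculin gene FLO1 (1.81 at 0 h, against 1.87, 1.70 and 2.57 late). ACT1, actin, had 1.40 at 0 h, against 0.88, 1.13 and 1.41 late, and ICL1, isocitrate lyase, had 0.09 at 0 h, against -0.26, 0.11 and -0.15 late.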

How the data were processed

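The deposited values were linear intensities, given as whole numbers per probe and array in the series' value table. For the scanner, background correction and scaling, what the authors did is not given in the sources used here. Intensities were log2 transformed after 3 values of 0 at 168 h were set as missing, probes with the same symbol were averaged, and the array median was subtracted. Quantile normalization over the 12 arrays was the second scaling. Differences were tested in R 4.3.3 with the limma package, version 3.58.1 (lmFit, then eBayes, 2 residual and 19.2 prior degrees of freedom) on the 4 arrays, and tables and figures were made with Python 3.11.15, pandas 2.3.3 and matplotlib 3.10.9. The fit was also run on simulated arrays in which 0 h varied like the late arrays. That run cannot check this assumption for the real 0 h array.

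Precision is limited by the number of arrays. The comparison, gene lists and named genes were chosen with earlier results of these data known. Named genes were the 15 each way farthest from the late range in both scalings (brighter side at or above the 25th percentile of its array), up to 3 members each way per list, and 39 fixed genes. Members outside this rule (the rest of the sterol pathway, MXR1, ANB1, CYC7, DAN1, FUS1 and GLC3) were chosen after their values were seen. Alternatives were other scalings, normexp with an offset of 50, a floor at the 5th percentile, removal of the dimmest 25% of genes, an intensity trend, other late windows, a fit to all 12 arrays and leaving out each late array. Only levels are reported for the 24 fixed genes that were not outside the range on the same side in both scalings. The planned comparison of promoter letters was not run, since no promoter sequences were used here, and positions are left out for want of a genome.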

Additional observations from a re-analysis of the deposited data

How the results depend on the processing

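The 6 genes that passed in limma kept their direction under all 14 alternatives run for them. MXR2 passed in 11 of the 14, FIG2 in 9, ERG25, ERG10 and CYB5 in 7 each and ERG3 in 5, with adjusted p from 3.71e-07 to 1 for MXR2. The limma counts of genes higher and lower at 0 h, 2 and 4 as reported, were 0 and 0 with 192 h in the late group (80 and 125 at an unadjusted p under 0.05), 1 and 0 with 96 h in it (142 and 263), 1 and 0 in a fit to all 12 arrays (56 and 179), 0 and 0 as deposited without centring (3 and 0), and 0 and 0 after normexp correction (216 and 342). They were 8 and 16 with equal median absolute deviations, 4 and 13 with a floor at the 5th percentile, and 6 and 36 without the dimmest 25% of genes. Quantile normalization gave 0 lower over 12 arrays (381 at an unadjusted p under 0.05) and 1 lower over the 4. Leaving out single late arrays gave 2 to 7 higher and 8 to 24 lower, with the extremes of 7 and 24 without 168 h.

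Without centring, the median gene was shifted by 0.62 log2 units. Counts of genes above and below the late range were then 595 and 104, against 1578 and 1815, those beyond it by 1 log2 unit 28 and 7, against 52 and 164, the ergosterol median -0.67 with 10 genes below, and the proteasome count below 1. Without the dimmest 25%, 934 genes lay above and 18 by 1 log2 unit. With 192 h in the late group, 1144 genes lay below, 27 were above and 49 below by 1 log2 unit, and 6 ergosterol genes lay below. Genes beyond the range by 1 log2 unit numbered 112 above with equal median absolute deviations, 222 above and 348 below after normexp, 122 above after quantile normalization over 12 arrays and 124 over 4, and 96 to 117 above and 220 to 309 below with single late arrays left out. Trehalose and glycogen genes above the range numbered 12 with equal median absolute deviations, 9 after normexp, 11 after either quantile normalization and 6 to 9 with single late arrays left out. OLE1 reversed, to 1.27, with equal median absolute deviations; the cause was not tested. No paired analysis was possible because the labels carry no replicate numbers.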

Other observations

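The 5 brightest genes of the 0 h array were YLR162W, OLE1, SED1, RNH203 and MXR2, chosen here after their values were seen. YLR162W, whose function is not described here, had 6.60 at 0 h, 3.39 at 1 h, and 3.86, 4.48 and 6.12 at 120, 144 and 168 h. RNH203, a subunit of ribonuclease H2, had 4.83 at 0 h, against 1.94, 2.05 and 4.46 late, so its 168 h level was near that of 0 h while 120 and 144 h were not. SED1, a major cell wall protein gene of resting cells, had 5.26 at 0 h, against 4.64, 4.98 and 6.20 late.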
